A study of Arabidopsis thaliana with 12 samples.

Results

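COR15A, COR15B, COR47, ERD10, LTI30, RAB18, KIN1, KIN2, RD29A and RD29B are 10 Arabidopsis genes known as cold-regulated (COR) and dehydrin genes, and they were followed here across 4 genotypes. They were chosen by gene name and known role, with no threshold on a measured value but with earlier results of these data known, and are 10 of the 20869 genes that had a value in at least 1 library. The study sequenced poly-A RNA of whole seedlings of the Col background in 12 libraries, 3 of each genotype, to compare genes that depend on SMXL4 and SMXL5 with genes that depend on SMAX1. The genotypes were the double mutant smxl4-1 smxl5-1, the single mutant smxl5-1, the single mutant smax1-2 and WT (Col-0). All were 7 days old and grew on plates at 21 °C in 12 h of light and 12 h of dark, with no cold, drought or hormone treatment in the labels. Each biological replicate pooled 15 seedlings, so a value averages all tissues of the seedling, and fewer cells of a type cannot be told apart from less RNA per cell. No smxl4-1 single mutant was analysed here.

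Plants that meet cold or lose water make hydrophilic proteins that protect membranes and other proteins, and the COR and dehydrin genes encode many of them. Promoters of these genes carry the C-repeat or dehydration-responsive element (CRT/DRE), which the cold-induced CBF and the drought-induced DREB2 activators bind. They also carry the abscisic acid (ABA) responsive element (ABRE), which the ABF activators bind when ABA switches off the PP2C phosphatases. COR15A and COR15B are chloroplast proteins that stabilise membranes on freezing. COR47, ERD10, LTI30 (XERO2 in the deposited tables) and RAB18 are dehydrins, KIN1 and KIN2 are small hydrophilic proteins, and RD29A and RD29B (LTI78 and LTI65 in the deposited tables) are larger hydrophilic proteins widely used as reporters of cold, drought and ABA.

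Of the 10 genes, 8 lie in 4 tandem pairs on the same strand with no gene between them. In the RefSeq annotation of TAIR10.1, COR15A (AT2G42540) lies at chr2:17710441-17712330 and COR15B (AT2G42530) at chr2:17708593-17710433, both on the minus strand and 7 bases apart. COR47 (AT1G20440, chr1:7084409-7086873) and ERD10 (AT1G20450, chr1:7087903-7089606) are on the minus strand, 1029 bases apart. KIN1 (AT5G15960, chr5:5209717-5210826) and KIN2 (AT5G15970, chr5:5211719-5212743) are on the plus strand, 892 bases apart. RD29B (AT5G52300, chr5:21237021-21239531) and RD29A (AT5G52310, chr5:21240717-21243644) are on the plus strand, 1185 bases apart. LTI30 (AT3G50970, chr3:18940643-18941611, plus strand) and RAB18 (AT5G66400, chr5:26518277-26519447, minus strand) stand apart from the pairs. The coding sequences were 95% identical between KIN1 and KIN2, 83.8% between COR15A and COR15B, 82.3% between COR47 and ERD10, and 80.7% between RD29A and RD29B. KIN1 and KIN2 shared 5.92% of their 50-base coding words and so may exchange reads, while the other pairs shared none. COR15B overlaps AT2G42520 and RAB18 overlaps AT5G66410 on the opposite strand, and the strand setting of the libraries is not given in the sources used here, so reads of these neighbours cannot be told apart from their own.

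The 500 bases before each start codon were searched on both strands for the CRT/DRE core CCGAC and the ABRE core ACGTG, because these are the letters through which the activators named above are known to act. CCGAC was present in 10 of the 10 genes, against 23.3% of 27443 annotated protein-coding genes, and ACGTG in 9 of the 10, against 34.8%. Both were present in 9 of the 10 genes, against 9.06% of all genes. The nearest CCGAC to the start codon is shown for each gene, read along the gene's strand, with the core in capitals in either orientation.
COR15A CRT/DRE, chr2:17712218-17712242, minus strand: aatttcatggCCGACctgctttttt
COR15B CRT/DRE, chr2:17710124-17710148, minus strand: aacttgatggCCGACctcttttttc
COR47 CRT/DRE, chr1:7085918-7085942, minus strand: tattcatctaCCGACttcaagaaat
ERD10 CRT/DRE, chr1:7089363-7089387, minus strand: caccgaccgaCCGACgtaaaagaaa
LTI30 CRT/DRE, chr3:18940624-18940648, plus strand: cttttacgatGTCGGccaacacgta
RAB18 CRT/DRE, chr5:26519345-26519369, minus strand: aaacaccacgCCGACattttctgct
KIN1 CRT/DRE, chr5:5209804-5209828, plus strand: taaatagctaCCGACataaggcaaa
KIN2 CRT/DRE, chr5:5211771-5211795, plus strand: taaaaagctaCCGACataaggcaaa
RD29A CRT/DRE, chr5:21240711-21240735, plus strand: aaagatcaagCCGACacagacacgc
RD29B CRT/DRE, chr5:21236875-21236899, plus strand: taaacgtggaCCGACtaaaactaaa

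Among the cores shown, surrounding letters are shared in 2 of the 4 pairs. These are tggCCGACct between COR15A and COR15B and agctaCCGACataaggcaaa between KIN1 and KIN2. The other pairs share letters at a core farther from the start codon. The RD29A core 352 bases before its start codon and the RD29B core shown share tggaCCGACta. The letters tattcatc lie shortly before the COR47 core shown and before the ERD10 core 278 bases from its start codon. ERD10 carries 3 overlapping cores in a row, of which 1 is shown, and no ACGTG. The ABRE cores differed more in number, from 0 in ERD10 and 1 in COR47, LTI30 and RD29A to 3 in COR15B, 4 in RAB18 and RD29B, 5 in COR15A and KIN1 and 7 in KIN2. At least 4 were present in 5 of the 10 genes, against 2.43% of all genes, and a palindrome CACGTG counts as 2 of them because it is read on both strands. The ABRE palindromes of COR15A and KIN2 nearest to their start codons, and the RAB18 core nearest to its own, are shown because these genes carry 4 or more cores.
COR15A ABRE, chr2:17712167-17712191, minus strand: atatgattacACGTGgcctgaaaag
KIN2 ABRE, chr5:5211829-5211853, plus strand: ttcagattacACGTGgcaccacaca
RAB18 ABRE, chr5:26519366-26519390, minus strand: taaatacgaaCACGTatggcgaaac

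RD29A and RD29B differ most plainly in these letters, so the 300 bases before their annotated gene starts are shown whole, with CCGAC and ACGTG cores of either orientation in capitals.
RD29A, chr5:21240417-21240716, plus strand: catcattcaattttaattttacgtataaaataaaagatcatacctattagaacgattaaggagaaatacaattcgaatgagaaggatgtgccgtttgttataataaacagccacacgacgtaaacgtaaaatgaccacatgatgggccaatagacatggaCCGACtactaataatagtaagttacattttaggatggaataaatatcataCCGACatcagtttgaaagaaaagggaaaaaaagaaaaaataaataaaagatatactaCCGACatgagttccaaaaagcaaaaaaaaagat
RD29B, chr5:21236721-21237020, plus strand: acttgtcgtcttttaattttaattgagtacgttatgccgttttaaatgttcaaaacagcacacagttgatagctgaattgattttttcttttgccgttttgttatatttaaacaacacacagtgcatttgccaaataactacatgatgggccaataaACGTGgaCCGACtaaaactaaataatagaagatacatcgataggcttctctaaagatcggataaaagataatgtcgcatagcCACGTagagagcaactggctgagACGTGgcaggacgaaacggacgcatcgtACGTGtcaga

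The RD29A window held 3 CCGAC and 0 ACGTG, and the RD29B window held 1 CCGAC and 4 ACGTG. Among all windows of this length, 0.277% held at least 3 CCGAC and 1.56% at least 4 ACGTG. A match is a description of letters and does not show that a factor binds there. These windows were read from RefSeq's TAIR10.1 sequence. Its annotated gene starts lie farther upstream than the transcript lengths in the deposited tables for several of the genes. For that reason the main counts over the 10 genes run from the start codon.

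**Figure D1:**
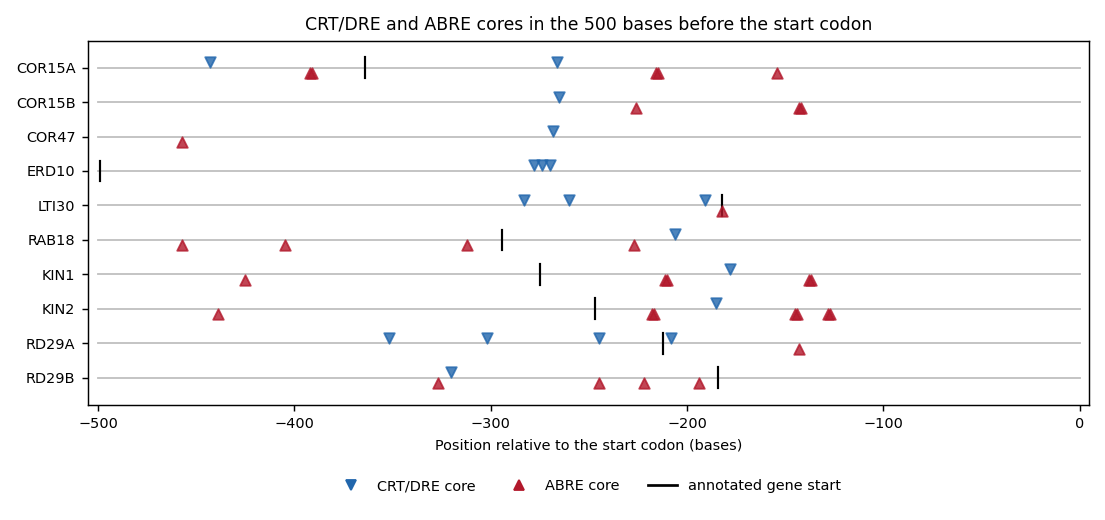
Positions of CRT/DRE cores (CCGAC, blue) and ABRE cores (ACGTG, red) in the 500 bases before the start codon of each of the 10 genes, either strand. Black ticks mark the annotated gene start where it lies within the window. RD29A carries 4 CRT/DRE cores and 1 ABRE core, RD29B carries 1 and 4, and ERD10 carries 3 and 0.

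Across the series the libraries held 27825 to 31919 assembled transcript pieces, of which 31.8% to 47.2% matched a reference transcript completely, and smxl4-1 smxl5-1 replicate 2 was the most fragmented. The tables give no read counts, so the depth in reads is unknown. Of the mutated genes, SMXL4 and SMXL5 did not stand lower in the libraries labelled as their mutants than in WT, while SMAX1 did. SMXL5 stood at 9.0 to 18.2 FPKM in the smxl4-1 smxl5-1 libraries and at 40.0 to 50.6 FPKM in the smxl5-1 libraries, against 3.47 to 5.18 FPKM in WT. SMXL4 stood at 2.75 to 4.85 FPKM in smxl4-1 smxl5-1, against 1.81 to 3.01 FPKM in WT. SMAX1 stood at 15.1 to 18.2 FPKM in smax1-2, against 21.3 to 22.5 FPKM in WT. Every direction given here is therefore between libraries as they are labelled. Root markers (5 of 5 listed in each library) summed to 170 to 213 FPKM in smxl4-1 smxl5-1 and 84.7 to 158 FPKM in WT, without overlap. They summed to 125 to 346 FPKM in smxl5-1 and 124 to 219 FPKM in smax1-2. Most of each sum was IRT1, at 181, 140 and 137 FPKM in smxl4-1 smxl5-1 and 127, 89.3 and 54.0 FPKM in WT. The other root markers, SCR, SHR, EXPA7 and GL2, each overlapped between smxl4-1 smxl5-1 and WT. Leaf photosynthesis markers (4 of 4 listed in each library) summed to 43145 to 45091 FPKM in smxl4-1 smxl5-1, 35528 to 39848 FPKM in smxl5-1 and 41328 to 44185 FPKM in smax1-2, against 40328 to 43745 FPKM in WT, so that smxl5-1 lay below WT. The part of these markers in the differences of the 10 genes was not tested.

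A gene's value is its FPKM (fragments per kilobase of transcript, scaled to the library's size), summed over its assembled pieces after each piece is weighted by the share of the reference transcript it covers. A value of 0 means that no piece was listed, which is not a measured absence. Differences were tested with limma on log2(value + 1), so a fold change of a low gene is understated, and a gene is named as called where p, adjusted by Benjamini and Hochberg's method over 19656 genes, was under 0.05. All 10 genes passed the filter of at least 1 FPKM in at least 3 libraries, COR15B with exactly 3. Each mean is given with its SD over n = 3 libraries.

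COR15A rose in smxl4-1 smxl5-1 and was the one gene of the 10 called against WT there. It stood at 25.9, 54.9 and 37.3 FPKM in smxl4-1 smxl5-1, at 3.95, 6.24 and 7.10 FPKM in smxl5-1, at 7.65, 7.09 and 4.27 FPKM in smax1-2, and at 4.08, 3.27 and 3.52 FPKM in WT. All 3 smxl4-1 smxl5-1 libraries lay above all 9 others, with replicate 2 the highest. COR15A averaged 39.4 ± 14.6 FPKM in smxl4-1 smxl5-1 and 3.62 ± 0.411 FPKM in WT, a log2 fold change of 3.07 (SE 0.29, 95% interval 2.42 to 3.71, adjusted p = 0.000952). The differences from the single mutants were called as well, at 2.54 against smxl5-1 (SE 0.29, adjusted p = 0.00258) and 2.43 against smax1-2 (SE 0.29, adjusted p = 0.00326). Neither smxl5-1 (0.52, 95% interval -0.12 to 1.17, adjusted p = 0.514) nor smax1-2 (0.64, 95% interval -0.01 to 1.28, adjusted p = 0.728) was called against WT. The order of the COR15A means was smxl4-1 smxl5-1, smax1-2, smxl5-1 and WT, and the lower 3 did not differ at the threshold. Each library listed 1 piece of COR15A, of 355 to 672 bases, and the file bounds of the lowest smxl4-1 smxl5-1 library, 22.9 to 28.9 FPKM after the same weighting, lay above those of every WT library, of which the highest upper bound was 5.28 FPKM. The call against WT held under all 14 alternatives, with log2 fold changes of 2.80 to 3.34.

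COR15B, the neighbour of COR15A, was close to the limit of the tables. It stood at 0, 6.27 and 3.25 FPKM in smxl4-1 smxl5-1 and at 0, 3.97 and 0 FPKM in smax1-2, and was listed at 0 in all smxl5-1 and all WT libraries. No fold change is given against a group listed at 0. The smxl4-1 smxl5-1 and smax1-2 libraries overlapped, and their difference was not called (0.88 on the log2 scale, 95% interval -0.88 to 2.64, adjusted p = 0.735). In the 3 libraries that listed both genes, COR15B reached 0.114 and 0.0872 times the level of COR15A in smxl4-1 smxl5-1 and 0.56 times in smax1-2.

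Among the dehydrins, COR47 and ERD10 fell in smxl4-1 smxl5-1 relative to smxl5-1. COR47 is the most abundant of the 4 dehydrins. It stood at 188, 175 and 173 FPKM in smxl4-1 smxl5-1, at 259, 348 and 246 FPKM in smxl5-1, at 210.1, 220.5 and 201 FPKM in smax1-2, and at 224, 200.1 and 219 FPKM in WT. The smxl4-1 smxl5-1 libraries were the lowest 3 of the 12 and the smxl5-1 libraries the highest 3, with smax1-2 and WT overlapping between them. The log2 fold change of smxl4-1 smxl5-1 against smxl5-1 was -0.65 (SE 0.12, adjusted p = 0.0215). Against WT, smxl4-1 smxl5-1 stood at -0.26 (95% interval -0.53 to 0.00344, adjusted p = 0.43) and smxl5-1 at 0.39 (95% interval 0.12 to 0.65, adjusted p = 0.226).

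ERD10 stood at 73.4, 77.4 and 67.5 FPKM in smxl4-1 smxl5-1, at 99.1, 108.9 and 103.9 FPKM in smxl5-1, at 84.4, 98.8 and 79.6 FPKM in smax1-2, and at 78.5, 78.2 and 88.6 FPKM in WT. As with COR47, smxl4-1 smxl5-1 held the lowest 3 libraries and smxl5-1 the highest 3. Its log2 fold change of smxl4-1 smxl5-1 against smxl5-1 was -0.51 (SE 0.09, adjusted p = 0.0228), against -0.17 relative to WT (adjusted p = 0.559). Neither call is firm, since without smxl4-1 smxl5-1 replicate 3 the adjusted p rose to 0.082 for COR47 and 0.0907 for ERD10. The COR47 call was also lost without smxl4-1 smxl5-1 replicate 2 (adjusted p = 0.0605), and the ERD10 call without smxl5-1 replicate 2 (0.0545) or replicate 3 (0.0632). COR47 stood 2.26 to 2.57 times as high as ERD10 in smxl4-1 smxl5-1 and 2.47 to 2.85 times in WT, so the ratio overlapped.

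LTI30 and RAB18 were called in no comparison. LTI30 stood at 24.7, 24.7 and 26.3 FPKM in smxl4-1 smxl5-1, at 28.9, 51.9 and 25.5 FPKM in smxl5-1, at 18.1, 22.6 and 24.3 FPKM in smax1-2, and at 23.2, 16.9 and 20.1 FPKM in WT. Its highest library was smxl5-1 replicate 2, and the smxl5-1 and smxl4-1 smxl5-1 libraries all lay above the WT libraries. The log2 fold changes against WT were 0.33 in smxl4-1 smxl5-1 (adjusted p = 0.641) and 0.73 in smxl5-1 (adjusted p = 0.236).

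RAB18, the dehydrin best known for its response to ABA, stood at 37.5, 15.5 and 38.7 FPKM in smxl4-1 smxl5-1, at 9.99, 24.0 and 20.4 FPKM in smxl5-1, at 11, 16.0 and 9.27 FPKM in smax1-2, and at 13.8, 14 and 11.6 FPKM in WT. The 3 smxl4-1 smxl5-1 libraries lay above WT, but replicate 2 exceeded the highest WT library by little. With effective lengths this separation was lost. Replicate 2 of smxl4-1 smxl5-1 then stood at 10.01 FPKM, below all WT libraries, of which the lowest stood at 11.43 FPKM. RAB18 averaged 30.6 ± 13.1 FPKM in smxl4-1 smxl5-1 and 13.1 ± 1.32 FPKM in WT, a log2 fold change of 1.06 (95% interval 0.21 to 1.91) that did not pass (adjusted p = 0.298). Replicates 1 and 3 of smxl4-1 smxl5-1 each included a piece classed as overlapping the gene or reaching beyond its exons, worth 14.2 and 14.3 FPKM. Such pieces were also listed in smxl5-1 replicate 3 (6.56 FPKM), smax1-2 replicates 1 (6.04 FPKM) and 2 (3.96 FPKM) and WT replicate 1 (6.30 FPKM). Whether reads of AT5G66410, which overlaps RAB18 on the other strand, add to these values was not tested.

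Neither KIN gene was called in any of the 6 comparisons. KIN2 stood at 199, 279 and 124 FPKM in smxl4-1 smxl5-1, at 124, 119 and 143 FPKM in smxl5-1, at 154, 194 and 139 FPKM in smax1-2, and at 123, 132 and 122 FPKM in WT. Replicates 1 and 2 of smxl4-1 smxl5-1 were the highest of the 12 libraries, while replicate 3 lay within the WT range. The log2 fold change against WT was 0.59 (95% interval 0.05 to 1.13, adjusted p = 0.366). In replicate 3 the gene was listed as 1 piece of 1371 bases, against a reference length of 480 bases, and counting the whole piece gave 353 FPKM there and a call against WT (log2 fold change 1.10, adjusted p = 0.0209) in an alternative chosen after seeing the data.

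KIN1 stood at 26.3, 43.96 and 19.7 FPKM in smxl4-1 smxl5-1, at 31.1, 28.9 and 29.0 FPKM in smxl5-1, at 41.9, 202 and 29.6 FPKM in smax1-2, and at 96.3, 26 and 89.8 FPKM in WT. The high values came from 3 libraries, smax1-2 replicate 2 and WT replicates 1 and 3, and the genotypes overlapped in all 6 comparisons. In those 3 libraries KIN1 was listed as pieces of 124 to 286 bases of a 549-base reference, and with effective lengths they stood at 105.6, 48.3 and 44.2 FPKM. The log2 fold change of smxl4-1 smxl5-1 against WT was -1.08 (95% interval -2.60 to 0.44, adjusted p = 0.605). KIN1 reached 0.133 to 0.159 times the level of KIN2 in smxl4-1 smxl5-1 and 0.197 to 0.78 times in WT.

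RD29A, the reporter with the most CRT/DRE cores, stood at 15.9, 18.6 and 12.2 FPKM in smxl4-1 smxl5-1, at 12.8, 18 and 14.1 FPKM in smxl5-1, at 11.5, 11.4 and 9.996 FPKM in smax1-2, and at 11.1, 9.42 and 10.9 FPKM in WT. All smxl4-1 smxl5-1 and smxl5-1 libraries lay above all smax1-2 and WT libraries. The log2 fold changes against WT were 0.52 in smxl4-1 smxl5-1 (95% interval 0.15 to 0.88, adjusted p = 0.219) and 0.47 in smxl5-1 (95% interval 0.10 to 0.83, adjusted p = 0.282), and neither passed.

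RD29B, the reporter with the most ABRE cores of the pair, stood at 8.64, 9.93 and 3.04 FPKM in smxl4-1 smxl5-1, at 1.46, 1.28 and 1.56 FPKM in smxl5-1, at 1.19, 1.01 and 0 FPKM in smax1-2, and at 0, 1.2 and 1.2 FPKM in WT. Its 3 smxl4-1 smxl5-1 libraries lay above all 9 others. The log2 fold change of 2.15 against WT missed the threshold (SE 0.48, 95% interval 1.09 to 3.22, adjusted p = 0.0744), as did those of 1.63 against smxl5-1 (adjusted p = 0.106) and 2.20 against smax1-2 (adjusted p = 0.0573). Without smxl4-1 smxl5-1 replicate 3 the adjusted p fell to 0.0475 against WT and to 0.0442 against smax1-2. In smxl4-1 smxl5-1 replicate 1, a single piece of 125 bases gave 6.44 of the 8.64 FPKM, and with effective lengths the 3 libraries stood at 4.27, 9.87 and 2.39 FPKM, against 0 to 1.01 FPKM in WT. RD29B reached 0.543, 0.533 and 0.248 times the level of its neighbour RD29A in smxl4-1 smxl5-1, against 0, 0.127 and 0.11 times in WT. The 2 groups of ratios did not overlap, but 3 against 3 libraries allow no exact two-sided permutation p below 0.1, which is the p found here (0.2 after adjustment over the 4 pairs).

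**Figure D2:**
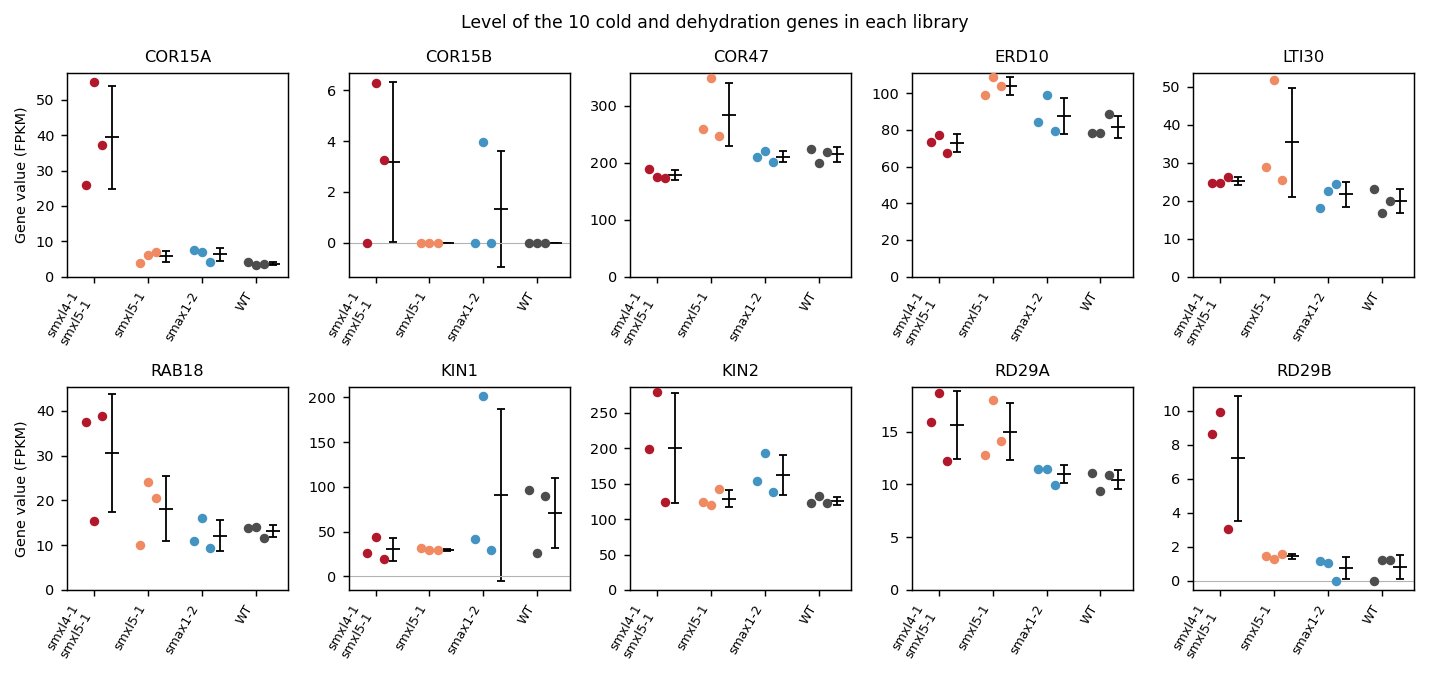
Gene value in FPKM of each of the 10 genes by genotype, 1 point for each library in replicate order, with the mean and SD (n = 3) as a black bar beside the points. COR15A and RD29B show 3 smxl4-1 smxl5-1 points above all others, COR47 and ERD10 show smxl4-1 smxl5-1 lowest and smxl5-1 highest, and KIN1 is scattered within smax1-2 and WT.

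Over the 10 genes, limma called 1 as higher and 0 as lower in smxl4-1 smxl5-1 against WT, where 1.13% of all tested genes were called and 0.631% were called higher. At an unadjusted p under 0.05 stood 5 of the 10, against 11.9% of all genes. By the separation of libraries, 5 of the 10 (COR15A, LTI30, RAB18, RD29A and RD29B) had all smxl4-1 smxl5-1 libraries above WT, against 12.5% of all tested genes, and 2 (COR47 and ERD10) had all below, against 6.61%. The median log2 fold change was 0.52 over the 9 genes listed in both genotypes and 0.07 over all tested genes. For smxl5-1 against WT, 0 of the 10 were called by limma, where 0.351% of all tested genes were, and 4 had an unadjusted p under 0.05, where 12.2% of all genes did. There 5 of the 10 lay above WT without overlap (COR47, ERD10, LTI30, RD29A and RD29B), against 13.6% of all genes, and the median was 0.39 over 9 genes, against 0.07. For smax1-2 against WT, 0 were called by limma, where 0.0356% of all genes were, and 0 had an unadjusted p under 0.05, where 6.77% of all genes did. Only COR15A and KIN2 lay above WT there without overlap, which is 2 of the 10 against 12.9% of all genes, and the median was 0.06 over 9 genes, against 0.09 over all genes. Some of these separations did not hold with effective lengths. RAB18 then overlapped between smxl4-1 smxl5-1 and WT. RD29B overlapped between smxl5-1 (0.534, 0.844 and 1.13 FPKM) and WT (0, 0.538 and 1.01 FPKM). COR15A overlapped between smax1-2 and WT, with the lowest smax1-2 library at 3.39 FPKM and the highest WT library at 3.43 FPKM. The 3 comparisons with WT share the WT libraries.

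The mutants were also set against each other. Between smxl4-1 smxl5-1 and smxl5-1, 1 of the 10 was called higher in the double mutant (COR15A) and 2 lower (COR47 and ERD10), where 2.99% of all tested genes were called, 1.2% higher and 1.8% lower. Without overlap, 2 of the 10 (COR15A and RD29B) lay higher, against 9.35% of all genes, and 2 (COR47 and ERD10) lower, against 11%. Between smxl4-1 smxl5-1 and smax1-2, 1 was called, COR15A as higher, where 1.55% of all genes were called and 0.809% were called higher. There COR15A, LTI30, RD29A and RD29B lay higher in smxl4-1 smxl5-1 without overlap, which is 4 of the 10 against 8.16% of all genes, and COR47 and ERD10 lay lower, which is 2 of the 10 against 9.77%. Between smxl5-1 and smax1-2, 0 were called by limma, where 0.224% of all genes were, and 4 had an unadjusted p under 0.05, where 11.8% of all genes did. There COR47, ERD10, LTI30, RD29A and RD29B lay higher in smxl5-1 without overlap, which is 5 of the 10 against 8.93% of all genes, with log2 fold changes of 0.25 to 0.63. With effective lengths ERD10 and RD29B overlapped between smxl5-1 and smax1-2, and LTI30 overlapped between smxl4-1 smxl5-1 and smax1-2. By mean level, smxl4-1 smxl5-1 ranked highest for 6 of the 10 genes (COR15A, COR15B, RAB18, KIN2, RD29A and RD29B), smxl5-1 for 3 (COR47, ERD10 and LTI30) and smax1-2 for KIN1, while WT ranked highest for none. Of the neighbours in these orders, only COR15A in smxl4-1 smxl5-1 over smax1-2 was called. The shares of all genes with such ranks were not computed. Of the 19656 tested genes, 11939 had a log2 fold change above 0 in smxl4-1 smxl5-1 against WT. The same held for 12151 in smxl5-1 and 13105 in smax1-2, so a low rank of WT is not particular to the 10 genes.

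**Figure D3:**
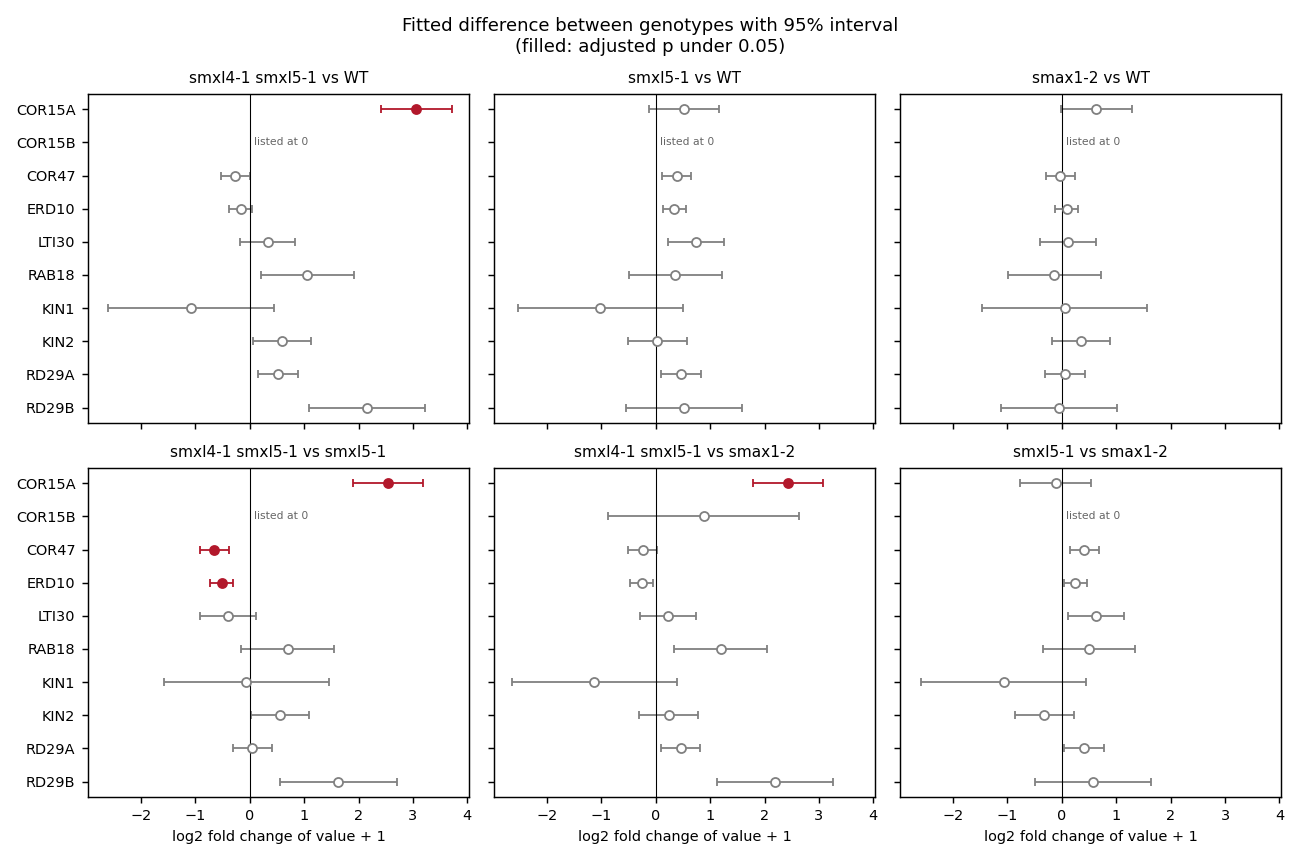
Log2 fold change of value + 1 with its 95% interval for the 10 genes in the 6 comparisons of genotypes. Filled red points passed an adjusted p of 0.05, and COR15B is marked where a genotype is listed at 0. COR15A is filled in the 3 comparisons that hold smxl4-1 smxl5-1, COR47 and ERD10 in smxl4-1 smxl5-1 against smxl5-1.

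Of 15 CBF, DREB and related regulators, 11 could be tested and 0 were called by limma in any of the 6 comparisons. In smxl4-1 smxl5-1 against WT, 2 of the 11 had an unadjusted p under 0.05, where 11.9% of all tested genes did. CBF1 and CBF4 were listed at 0 in all 12 libraries, and CBF3 was listed in smxl4-1 smxl5-1 replicate 2 alone, at 7.74 FPKM. CBF2 stood at 0, 1.2 and 1.27 FPKM in smxl4-1 smxl5-1 and at 1.17, 1.47 and 2.22 FPKM in WT. The smallest p values in smxl4-1 smxl5-1 against WT were those of OST1, the kinase that ABA activates (14.4, 13.1 and 14.9 FPKM, against 10.5, 9.28 and 11 FPKM in WT, log2 fold change 0.43, adjusted p = 0.193), and HOS1, a ubiquitin ligase for ICE1 (log2 fold change 0.31). ICE1, an activator of the CBF genes, stood at 0.18 and MYB15, a repressor of them, at 0.76, and neither was called.

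Among regulators of the ABA response, ABF3, ABI1 and ABI2 rose in smxl4-1 smxl5-1. Of 10 such genes, 3 were called higher and 0 lower in smxl4-1 smxl5-1 against WT, where 0.631% of all tested genes were called higher. The same 3 were called higher against smax1-2, where 0.809% of all tested genes were. These comparisons share the smxl4-1 smxl5-1 libraries. ABF3, an activator that binds the ABRE, stood at 64.3, 63.7 and 60.5 FPKM in smxl4-1 smxl5-1, against 35.4, 27.1 and 34.2 FPKM in WT. Its log2 fold change was 0.95 against WT (SE 0.13, adjusted p = 0.00784) and 0.81 against smax1-2 (adjusted p = 0.0156). ABI1, a PP2C phosphatase that holds ABA signalling down, stood at 30.4, 35.8 and 32.6 FPKM in smxl4-1 smxl5-1, against 17.6, 19.3 and 19.3 FPKM in WT (log2 fold change 0.78, adjusted p = 0.011), and rose by 0.66 against smax1-2 (adjusted p = 0.0218). ABI2, its close relative, stood at 6.34, 8.47 and 8.58 FPKM in smxl4-1 smxl5-1, against 4.14, 3.93 and 3.94 FPKM in WT (log2 fold change 0.80, adjusted p = 0.0389), and rose by 0.94 against smax1-2 (adjusted p = 0.0176). In each of the 3 genes the smxl4-1 smxl5-1 and WT libraries did not overlap. The call of ABF3 against WT held in all 14 alternatives, that of ABI1 was lost without WT replicate 1 (adjusted p = 0.0563), and that of ABI2 was lost without any of the WT replicates or smxl4-1 smxl5-1 replicates 2 and 3 (adjusted p = 0.125 to 0.14). Against smax1-2 the calls were less firm, since leaving out 1 library ended that of ABF3 in 4 of 6 cases (smxl4-1 smxl5-1 replicates 1 and 2, smax1-2 replicates 1 and 3), that of ABI1 in 5 of 6 (all but smxl4-1 smxl5-1 replicate 1) and that of ABI2 in 4 of 6 (smxl4-1 smxl5-1 replicates 2 and 3, smax1-2 replicates 1 and 3), with adjusted p of 0.0523 to 0.0895. NCED3, the enzyme of the rate-limiting step of ABA synthesis, stood at 3.70, 11.4 and 3.08 FPKM in smxl4-1 smxl5-1 and at 0, 0.902 and 0.677 FPKM in WT. It was not called (log2 fold change 2.07, adjusted p = 0.194). Against smxl5-1, 0 of these 10 regulators were called by limma, with 4 at an unadjusted p under 0.05, where 17.1% of all tested genes were. ABF3, ABI1 and ABI2 lay above WT without overlap in smxl5-1 as well and were not called there, with ABI1 at 26.2, 35.1 and 27.3 FPKM in smxl5-1 (log2 fold change 0.62, adjusted p = 0.0639), ABF3 at 0.42 on the log2 scale (adjusted p = 0.23) and ABI2 at 0.43 (adjusted p = 0.297).

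Of 6 other dehydrins 3 could be tested, and the others were listed at 0 in every library. HIRD11, a small dehydrin, stood at 972, 1276 and 1366 FPKM in smxl4-1 smxl5-1 and at 2056, 1645 and 2102 FPKM in smxl5-1, and like COR47 and ERD10 it was called lower there (log2 fold change -0.69, adjusted p = 0.0367). That call was lost in 8 of 14 alternatives, 5 of which left out 1 library (any smxl4-1 smxl5-1 replicate, or smxl5-1 replicate 1 or 3, adjusted p = 0.0577 to 0.11). ERD14, a close relative of ERD10, stood at 302 to 354 FPKM in smxl4-1 smxl5-1, against 328 to 374 FPKM in WT. In smxl5-1 it stood at 402 to 575 FPKM, above each of the other genotypes without overlap. Its log2 fold change of smxl4-1 smxl5-1 against smxl5-1 was -0.48 and did not pass (adjusted p = 0.0826). AT4G38410 stood at 0 to 9.41 FPKM in smxl4-1 smxl5-1, against 2.09 to 14.9 FPKM in WT. Neither ERD14 nor AT4G38410 was called.

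Of 22 further genes that cold or dehydration is known to induce, 21 could be tested. None was called by limma in smxl4-1 smxl5-1 against WT, with 10 at an unadjusted p under 0.05, where 11.9% of all tested genes were. The median log2 fold change was 0.15 over the 21 genes and 0.41 over the 19 of them listed in both genotypes. The other 2, GOLS1 and GOLS3 (enzymes of galactinol synthesis), were listed at 0 in all smxl4-1 smxl5-1 libraries, and GOLS1 stood at 22.4, 0 and 22.6 FPKM in WT. RD20, a calcium-binding protein of oil bodies, stood at 14.7, 20.2 and 14.6 FPKM in smxl4-1 smxl5-1, against 3.17, 3.24 and 6.54 FPKM in WT (log2 fold change 1.76, adjusted p = 0.0968, and 0.0101 with effective lengths). LEA7 stood at 4.68, 16.1 and 4.55 FPKM against 0, 1.09 and 2.68 FPKM in WT, and COR413IM1, a chloroplast membrane protein, at 9.45, 12.6 and 11.2 FPKM against 4.2, 5.50 and 4.87 FPKM in WT, with no overlap in either. LEA14 was called lower in smxl4-1 smxl5-1, at 57.0, 68.8 and 60.8 FPKM, than in smxl5-1, at 84.3, 111 and 88.6 FPKM (log2 fold change -0.59, adjusted p = 0.0253), and than in smax1-2 (-0.69, adjusted p = 0.019). Both LEA14 calls were lost without smxl4-1 smxl5-1 replicate 1 or replicate 3 (adjusted p = 0.0627 to 0.0912), the first also without smxl5-1 replicate 3 (0.0518) and the second without smax1-2 replicate 1 (0.0802) or 3 (0.0555).

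**Figure D4:**
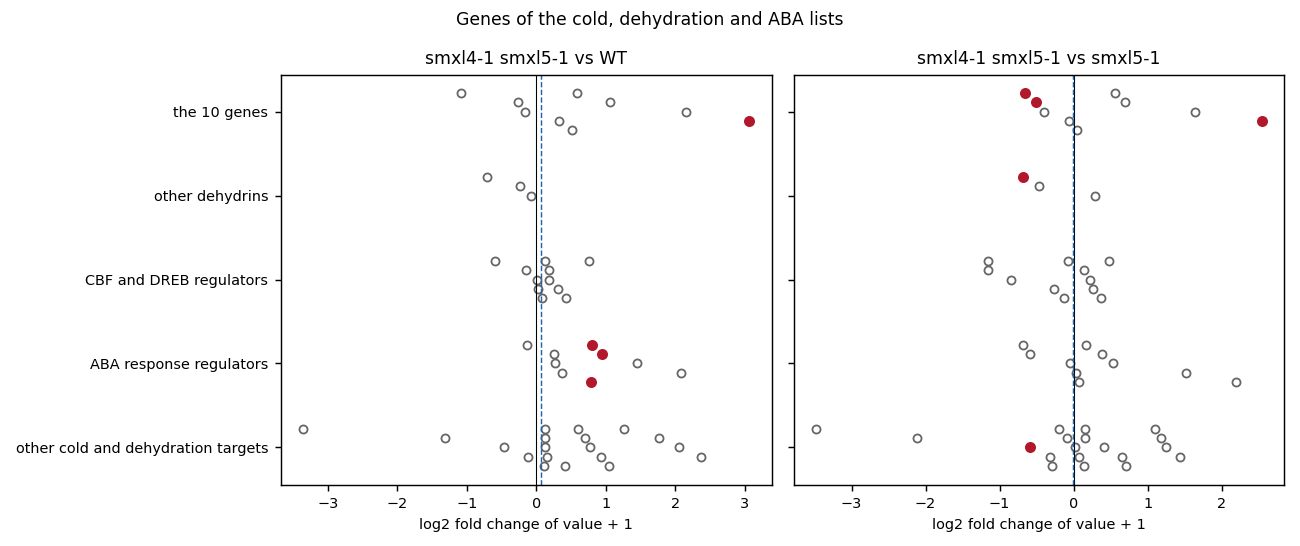
Log2 fold change of value + 1 for the genes of each list in smxl4-1 smxl5-1 against WT (left) and against smxl5-1 (right), 1 point for each gene listed in both genotypes. Filled red points passed an adjusted p of 0.05 and the dashed line is the median of all tested genes. COR15A lies at 3.07 and 2.54, and 3 of the 9 ABA response regulators drawn on the left are filled.

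Seed and embryo markers were looked at because several LEA and dehydrin genes are also active in seeds. Of 9 such markers, 5 were listed in any smxl4-1 smxl5-1 library, 3 in any smxl5-1, 2 in any smax1-2 and 1 in any WT library. Replicate 2 of smxl4-1 smxl5-1 listed 5, and its replicates 1 and 3 listed 2 each. The sums per library were 5.13 to 31.7 FPKM in smxl4-1 smxl5-1, 0 to 7.13 FPKM in smxl5-1, 0 to 49.1 FPKM in smax1-2 and 0 to 3.05 FPKM in WT. CRU2, CRU3, SESA1 and EM1 were listed at 0 in all 12 libraries. The highest sums were in smxl4-1 smxl5-1 replicate 2 and in smax1-2 replicate 2, where SESA2 alone stood at 45.7 FPKM. Within smxl4-1 smxl5-1, replicate 2 was highest for COR15A, COR15B, ERD10, KIN1, KIN2, RD29A and RD29B, and also for NCED3. It was lowest for RAB18 (15.5 FPKM) and LTI30, and COR47 lay between. Within smax1-2, replicate 2 was highest for COR15B, COR47, ERD10, RAB18, KIN1 and KIN2, and lay between for the others of the 10 genes. Without smxl4-1 smxl5-1 replicate 2 COR15A stood higher than WT by 2.80 on the log2 scale and was called. This is no test of the markers, because replicates 1 and 3 of smxl4-1 smxl5-1 still summed to 14.1 and 5.13 FPKM. Both sums lay above the highest WT sum of 3.05 FPKM. The part of these markers in the result was not tested for COR15A or for the other genes.

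The 5 genes whose pattern over the 12 libraries was nearest to the mean pattern of the 10 were GGH2 (AT1G78680), PP2CA (AT3G11410), AT1G79520, PHYE (AT4G18130) and AT3G23180. Nearness was the root mean square difference of log2(value + 1), each gene centred on its mean over the libraries, and ran from 0.137 for GGH2 to 0.167 for AT3G23180. The distances depended on the processing, with GGH2 at 0.327 with a pseudocount of 0.1, and PHYE at 0.693 and AT3G23180 at 0.383 with the plain sum of FPKM. GGH2 averaged 110.1 ± 10.7 FPKM in smxl4-1 smxl5-1, 86.2 ± 11.3 FPKM in smxl5-1, 80.6 ± 15.6 FPKM in smax1-2 and 73.2 ± 4.25 FPKM in WT. PP2CA, a PP2C phosphatase of the ABA response, averaged 28.5 ± 4.64 FPKM in smxl4-1 smxl5-1, 15.6 ± 3.52 FPKM in smxl5-1, 15.5 ± 4.11 FPKM in smax1-2 and 15.5 ± 1.73 FPKM in WT. These 5 genes were picked by their pattern, so their high level in smxl4-1 smxl5-1 follows from the choice. In smxl4-1 smxl5-1 against WT, limma called AT1G79520 (adjusted p = 0.0259), but not GGH2 (0.0948), PP2CA (0.104), PHYE (0.298) or AT3G23180 (0.0729). Of the 10 genes themselves, RD29A (0.249) and KIN2 (0.264) were nearest to their own mean pattern and COR15A (0.924) and KIN1 (0.976) farthest.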

How the data were processed

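The data were poly-A RNA libraries of whole seedlings, 3 of each of 4 genotypes, and genotypes were read from the labels. The submitters' processing notes name TopHat2 2.0.14 and TAIR10. Per the file headers, each deposited table lists 1 library's assembled transcript pieces in the column layout of Cuffcompare. The assembler's version and settings, the strand setting and the annotation's release were not named in the sources used here. Each piece has a deposited FPKM between a low and a high bound. Coverage, a signal per the file headers, was a constant multiple of FPKM within a file, and a percent of the main piece is deposited as well. Neither was used as a result, and no counts or depths in reads are given.

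A gene's value was the sum, over pieces whose class code was =, c, j, e or o, of FPKM times the smaller of piece and reference length divided by the reference length. The fit used limma 3.58.1 in R 4.3.3 (limma-trend) on log2(value + 1), with 12 libraries, 4 groups and 6 comparisons, over genes that reached 1 FPKM in 3 or more libraries. It was tested on simulated data. Alternatives were effective length (fragments of 200 ± 80 bases), a plain sum of FPKM, a pseudocount of 0.1, no filter, quantile normalization, median-of-ratios scaling, a replicate block, leaving out each library and, added after seeing the data, no limit on piece length. The 10 genes and all gene lists were chosen with earlier results of these data known. Of the other lists the text names the called genes and, where fewer than 4 were called in smxl4-1 smxl5-1 against WT, those with the smallest p there. Genes of 4 lists (other dehydrins, CBF and DREB regulators, ABA response regulators, other cold and dehydration targets) and 3 marker lists (leaf photosynthesis, root, seed and embryo) were used. CBF genes and single members of marker lists that are named beside them were chosen after their values were seen. Replicate numbers are those of the sample titles, and the tables' own names exchange replicates 1 and 2 of smxl4-1 smxl5-1. Replicates are separate biological replicates per the labels. Sequences and positions come from RefSeq's TAIR10.1, which holds 20435 of the 20869 genes. Python 3.11.15, numpy 2.4.6, pandas 2.3.3, scipy 1.17.1, Biopython 1.88 and matplotlib 3.10.9 were used.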

Additional observations from a re-analysis of the deposited data

How the results depend on the processing

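The COR15A calls in the 3 comparisons that hold smxl4-1 smxl5-1 kept their direction and their side of the threshold in all 14 alternatives of each, with adjusted p up to 0.0124 against WT, 0.0322 against smxl5-1 and 0.0472 against smax1-2. Of the 10 genes in smxl4-1 smxl5-1 against smxl5-1, 1 was called in place of 3 with the plain sum and with the replicate block, and against WT 2 were called with no limit on piece length. Leaving out 1 library gave 1 to 2 called against WT, 1 to 3 against smxl5-1 and 1 to 2 against smax1-2. COR47 was not called against smxl5-1 with the plain sum (adjusted p = 0.0738), quantile normalization (0.0782) or the replicate block (0.0537), nor ERD10 with the plain sum (0.324) or the replicate block (0.0526). Among the other genes named, the plain sum also ended the calls of ABI1 and ABI2 against WT, of ABF3, ABI1, ABI2 and LEA14 against smax1-2 and of HIRD11 and LEA14 against smxl5-1. Quantile normalization ended those of ABI2 against WT and LEA14 against smxl5-1, no limit on piece length that of HIRD11, and the replicate block those of ABI2 against WT (0.0806), ABF3 against smax1-2 (0.0528) and HIRD11 (0.0679) and LEA14 (0.0577) against smxl5-1. The replicate block gave the other 10-gene counts unchanged. The labels number the replicates alike in each genotype, but the deviations of same-numbered libraries correlated with a median of -0.01 over 18 pairs (range -0.102 to 0.0672). The deposited tables' own names number smxl4-1 smxl5-1 replicates 1 and 2 the other way round from the sample titles used here, and the block depends on that choice. By those names the same-numbered correlations of these 2 libraries would run from -0.060 to 0.167, so not every pair exceeds 0.1 under either numbering.

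Counts of all genes moved with the definition of the value. For smxl4-1 smxl5-1 against WT, 223 genes were called, with 350 by effective length, 58 by plain sum and 125 with the replicate block, and 89 to 143 without 1 library. For smxl5-1 against WT, 69 genes were called, with 126 by effective length, 9 by plain sum, 37 with quantile normalization and 25 with the replicate block, and 18 to 45 without 1 library. For smax1-2 against WT, 7 genes were called, with 14 by effective length, 11 with no filter and 4 with the replicate block, and 3 to 8 without 1 library. For smxl4-1 smxl5-1 against smxl5-1, 588 genes were called, with 1069 by effective length, 80 by plain sum and 225 with the replicate block, and 192 to 480 without 1 library. For smxl4-1 smxl5-1 against smax1-2, 304 genes were called, with 77 by plain sum and 153 with the replicate block, and 113 to 175 without 1 library. For smxl5-1 against smax1-2, 44 genes were called, with 90 by effective length, 13 by plain sum, 74 with no limit on piece length and 20 with the replicate block, and 13 to 28 without 1 library. The share of calls that were higher was 55.6% in smxl4-1 smxl5-1 against WT and 43.9% with median-of-ratios scaling, and 71% in smxl5-1 against WT, 51.4% with quantile normalization and 53.1% with median-of-ratios scaling. Quantile normalization shifted the median of all genes by -0.11 on the log2 scale in smax1-2 against WT.

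The log2 fold changes that turned round were of genes not called. In smxl5-1 against WT KIN2 stood at -0.030 with quantile normalization, -0.046 with median-of-ratios scaling and -0.046 to 0.083 without 1 library. In smax1-2 against WT RAB18 stood at 0.022 with the plain sum, and KIN1 at -0.18 with it, -0.011 with quantile normalization and -0.027 with median-of-ratios scaling. RD29A stood at -0.063 and -0.011 under those scalings, and RD29B at 0.076 with effective length. Without 1 library the ranges there were -0.075 to 0.0067 for COR47, -0.0049 to 0.23 for LTI30, -0.34 to 0.021 for RAB18, -0.77 to 0.59 for KIN1, -0.0037 to 0.12 for RD29A and -0.42 to 0.31 for RD29B. In smxl4-1 smxl5-1 against smxl5-1 KIN1 stood at 0.21 with effective length and at -0.37 to 0.19 without 1 library, and RD29A at -0.081 to 0.20 without 1. In smxl4-1 smxl5-1 against smax1-2 RD29A stood at -0.45 with the plain sum and KIN2 at -0.037 to 0.55 without 1 library. In smxl5-1 against smax1-2 RD29A stood at -0.50 with the plain sum, and COR15A at 0.042 with effective length and -0.34 to 0.095 without 1 library. AT4G38410 ran from -1.41 to 0.28 in smxl4-1 smxl5-1 against WT without 1 library. The cause of these changes was not tested. The plain sum also had a median SD within groups of 0.649 on the log2 scale, against 0.243 for the value used and 0.199 with effective length. The depth in reads is unknown, so values near 0, such as those of COR15B and RD29B in WT, have no stated limit of detection.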
